A study of Homo sapiens with 6 samples.

Results

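A set of 10 genes for secreted angiogenic growth factors were read from the count table by their symbols: VEGFA, VEGFB, VEGFC and PGF of the vascular endothelial growth factor (VEGF) family, PDGFA, PDGFB and PDGFC of the platelet-derived growth factor (PDGF) family, the angiopoietins ANGPT1 and ANGPT2, and the endothelin gene EDN1. They are 10 of 28265 genes in the table. RNA was sequenced from Huh7 cells, an established line from a human hepatocellular carcinoma, 48 h after lentiviral transduction. In 3 libraries the vector expressed LHX2, a LIM-homeodomain transcription factor, and the labels call these cells LHX2-overexpressing; 3 CTRL libraries came from cells that received a control vector and that the labels call parental. Both groups share the line, the lentiviral transduction and the 48 h of incubation. The labels give neither the promoter of the vector nor the origin of the replicates, so the p-values rest on how far libraries of a group lay apart, and that may be technical variation alone.

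VEGF family ligands act on receptor tyrosine kinases of endothelial cells, with neuropilins as co-receptors, and tumour cells are a known source of VEGFA. PDGF dimers recruit mural cells and fibroblasts through PDGFRA and PDGFRB. Angiopoietins bind TEK, where ANGPT1 is an agonist and ANGPT2 acts as an antagonist or a weak agonist depending on context, and the EDN1 product is cut to a vasoconstrictor peptide that binds EDNRA and EDNRB. In hepatocellular carcinoma, a highly vascular tumour, these ligands are known for their exchange between tumour cells, sinusoidal endothelium and stellate cells.

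The libraries held 30029313 to 39653681 reads in genes, and LHX2 had 2535, 2427 and 3126 counts in LHX2 replicates 1 to 3, against 1, 2 and 1 in CTRL replicates 1 to 3. Of 14533 genes that passed the filter on low counts, 4716 (32.5%) changed in the edgeR quasi-likelihood test at a Benjamini-Hochberg adjusted p under 0.05, with 16.6% higher and 15.8% lower in LHX2 libraries. The median log2 fold change of all tested genes was 0.01. Values below are CPM, counts scaled to a common library size with TMM factors, with the SD over n = 3 libraries.

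Of the growth factors, 9 passed the filter and were tested. EDN1, VEGFA, PDGFA and ANGPT2 rose, PGF fell, and VEGFB, PDGFB, PDGFC and ANGPT1 did not pass the test, so that 4 of 9 were higher and 1 lower, beside 16.6% and 15.8% of all tested genes. The LHX2 and CTRL libraries did not overlap in 5 of the 9, namely EDN1, VEGFA, PDGFA, PDGFB and ANGPT2, beside 44.9% of all tested genes. The median log2 fold change of the 9 was 0.40. These genes were chosen with earlier results of these data known, so the shares and the median are no test of the set. VEGFC was not tested because no library reached the filter's 0.305 CPM, and PDGFB reached it in 3 LHX2 and 2 CTRL libraries. The rises of EDN1 and VEGFA passed under all 15 alternative settings, whereas those of PDGFA and ANGPT2 and the fall of PGF were lost without single libraries, as given with each gene. Summed over the 10 genes, the level was 164.3 ± 4.89 CPM in LHX2 libraries and 126.1 ± 2.16 CPM in CTRL libraries, and VEGFA supplied 46.6% ± 2.25 of that sum in LHX2 libraries and 34.1% ± 1.92 in CTRL libraries.

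**Figure D1:**
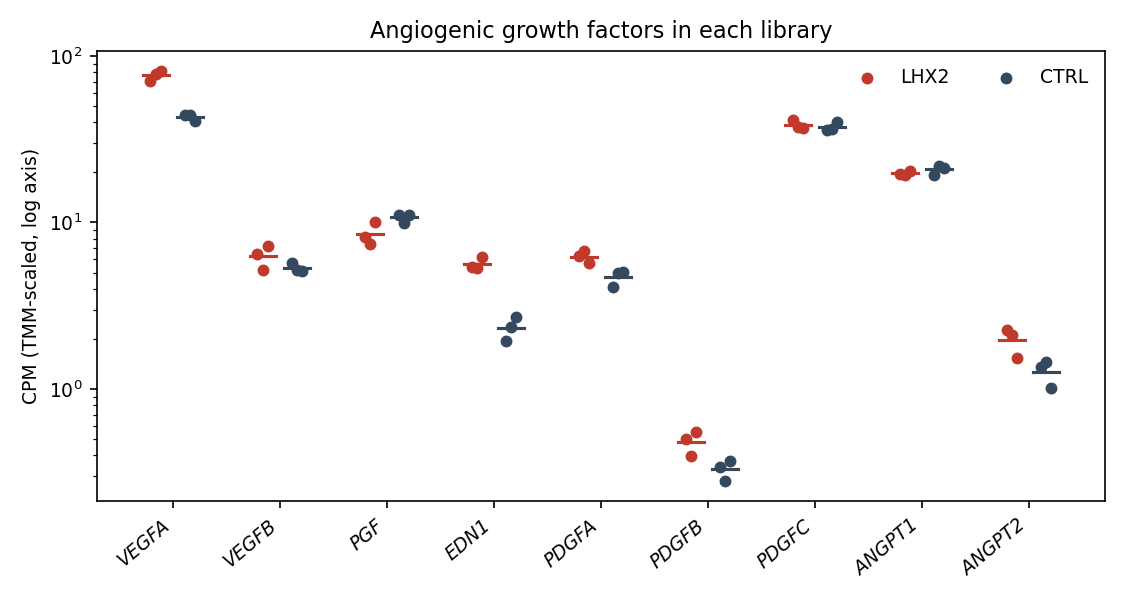
CPM of 9 growth factors in each library on a log axis (red, 3 LHX2 libraries; dark, 3 CTRL libraries; lines, group means). VEGFA libraries lie between 70.8 and 80.95 CPM with LHX2 and between 40.9 and 44.3 CPM with the control vector, EDN1 also separates, and PDGFC and ANGPT1 overlap between the groups.

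**Figure D2:**
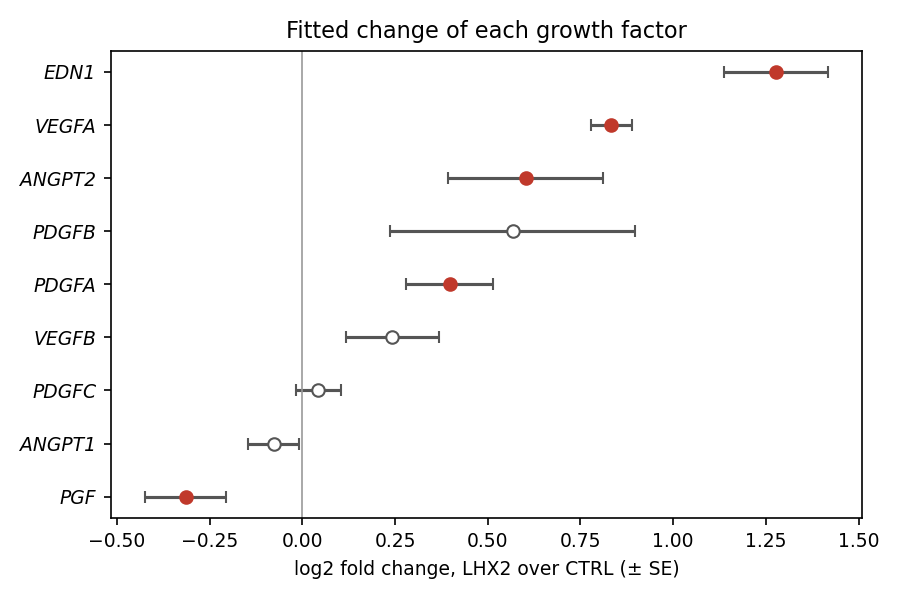
Fitted log2 fold change of LHX2 over CTRL for 9 growth factors, with bars for the SE (filled, adjusted p under 0.05; open, not passing). EDN1 is highest at 1.28 and PGF lowest at -0.32.

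EDN1 had the largest fitted change of the 9. It had 163, 163 and 224 counts in LHX2 replicates 1 to 3, against 63, 93 and 88 in CTRL replicates 1 to 3, which are 5.42, 5.35 and 6.21 CPM against 1.94, 2.37 and 2.71 CPM. All LHX2 libraries lay above all CTRL libraries. EDN1 rose 2.42-fold (log2 fold change 1.28 ± 0.14 SE, edgeR adjusted p = 6.86e-06), to 5.66 ± 0.48 CPM in LHX2 libraries, against 2.34 ± 0.388 CPM in CTRL libraries (SD, n = 3 each). The gene spans positions 12230516 to 12297194 of chromosome 6 (GRCh38), and no exon of another annotated gene overlapped its exons.

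Promoter windows of RefSeq (GRCh38.p14, 250 bases before a start site and 50 after it) are shown for EDN1, the member that rose most, and for PGF, the member that fell. Of the 10 genes, 5 had an entry in the table: VEGFB, VEGFC, PGF, EDN1 and PDGFA. Where a gene had several windows, that with the most GENCODE protein-coding transcript starts within 50 bases of its start site was taken, 1 of 3 for EDN1 and 1 of 2 for PGF. The EDN1 window is chr6:12290111-12290410 on the plus strand and the PGF window chr14:74955548-74955847 on the minus strand. Capitals mark matches to any searched motif on either strand.
EDN1: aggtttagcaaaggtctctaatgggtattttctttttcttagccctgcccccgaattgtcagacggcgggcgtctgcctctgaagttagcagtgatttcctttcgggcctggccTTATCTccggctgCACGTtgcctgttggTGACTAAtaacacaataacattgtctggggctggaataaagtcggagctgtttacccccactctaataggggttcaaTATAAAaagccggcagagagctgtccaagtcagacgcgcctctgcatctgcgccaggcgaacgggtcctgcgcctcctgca
PGF: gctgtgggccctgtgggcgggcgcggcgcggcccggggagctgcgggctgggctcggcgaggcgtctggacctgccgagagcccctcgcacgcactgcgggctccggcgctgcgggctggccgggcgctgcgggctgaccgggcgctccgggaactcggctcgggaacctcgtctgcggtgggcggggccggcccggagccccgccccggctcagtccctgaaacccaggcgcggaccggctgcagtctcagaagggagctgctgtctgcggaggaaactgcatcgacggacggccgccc
Every motif was searched on both strands, and its share is that of 34943 promoter windows that held it on either strand. The letters of the core promoter element, the TATA box, were searched as TATAAA (11.6%). For factors of the GATA family the letters searched were AGATAA (10.4%). The first form of the binding motif of AP-1 was TGACTAA (1.9%), and its palindromic second form was written as TGANTCA (7.72%). The core bound by hypoxia-inducible factors was searched as ACGTG (21.4%). The first core of homeodomain factors was TAATTA (4.85%), and the second of these cores was searched as TAATTG (7.39%). In the EDN1 window the GATA motif begins 136 bases before the start site and the hypoxia core 123 bases before it, both as the reverse complement on the strand shown. The first AP-1 form begins 108 bases before the start site and the TATA box 31 bases before it, and these matches do not overlap. The PGF window held no match and had 77.7% G and C, against 52.7% in the EDN1 window. The motifs were chosen by no stated rule and may include known elements of these promoters. The difference in matches between the windows was therefore not tested. Of the other EDN1 windows, 1 held ACGTG and 1 held TAATTG, and none of the 4 PDGFA windows or the windows of VEGFB and VEGFC held a match.

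VEGFA, the main inducer of endothelial growth and permeability, was the most abundant member in reads. It had 2128, 2386 and 2918 counts in LHX2 replicates 1 to 3, against 1432, 1735 and 1328 in CTRL replicates 1 to 3. On the CPM scale these are 70.8, 78.3 and 80.95 in LHX2 libraries, against 43.99, 44.25 and 40.89 in CTRL libraries, and the groups did not overlap. VEGFA rose 1.78-fold (log2 fold change 0.83 ± 0.05 SE, edgeR adjusted p = 3.06e-08), with means of 76.7 ± 5.25 CPM in LHX2 and 43.0 ± 1.87 CPM in CTRL libraries. After removal of the length and GC trend the log2 fold change of VEGFA was 0.62 and still passed (edgeR adjusted p = 1.09e-08). The gene lies on chromosome 6 from 43770211 to 43786487. The counts are per gene, so splice forms that differ in binding to heparan sulfate cannot be told apart. An exon of AL136131.3 on the opposite strand overlaps VEGFA, and the strand setting of the counting is not given in the sources used here, so reads of that transcript in the VEGFA count cannot be told apart.

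PGF, placental growth factor, binds FLT1 but not KDR, and it went the other way. It had 246, 226 and 365 counts in LHX2 replicates 1 to 3, against 362, 390 and 362 in CTRL replicates 1 to 3, or 8.19, 7.41 and 10.1 CPM against 11.1, 9.95 and 11.1 CPM. LHX2 replicate 3 lay within the CTRL range, so the groups overlapped. PGF fell by 0.32 on the log2 scale (SE 0.11, edgeR adjusted p = 0.0391; chromosome 14, 74941830 to 74955764). This call was lost without LHX2 replicate 1 (adjusted p = 0.111), LHX2 replicate 2 (0.157), CTRL replicate 1 (0.119) or CTRL replicate 3 (0.0909), and with library totals alone (0.0738), over a range of adjusted p from 0.00249 to 0.157 in all alternatives.

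VEGFB, which binds FLT1 and is linked to metabolism of tissue fatty acids more than to vessel growth, had 6.49, 5.18 and 7.27 CPM in LHX2 libraries, against 5.74, 5.20 and 5.14 CPM in CTRL libraries. The groups overlapped, and the log2 fold change of 0.24 ± 0.125 (SE) did not pass (edgeR adjusted p = 0.157). Without LHX2 replicate 2, the lowest of its group but above CTRL replicate 3, the value was 0.36 and passed at an adjusted p of 0.0296. VEGFC, a ligand for lymphatic endothelium, had 0, 1 and 0 counts in LHX2 libraries and 0, 2 and 0 in CTRL libraries, at or under the 3 counts that a count of 0 allows, and no fold is given.

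Because VEGFA and PGF moved apart, their ratio within each library was taken, which needs no scaling between libraries. There were 8.65, 10.6 and 7.99 VEGFA reads per PGF read in LHX2 replicates 1 to 3, against 3.96, 4.45 and 3.67 in CTRL replicates 1 to 3. The log2 ratio was 3.17 ± 0.207 in LHX2 and 2.004 ± 0.14 in CTRL libraries, a difference of 1.17. The two-sided exact permutation p was 0.1, the smallest that 3 against 3 libraries can give, and 0.1 when adjusted over the 3 ratios examined, which were chosen after the values were seen. VEGFA supplied 83.8% ± 2.06 of the reads of the VEGF family in LHX2 libraries and 72.7% ± 1.51 in CTRL libraries.

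**Figure D3:**
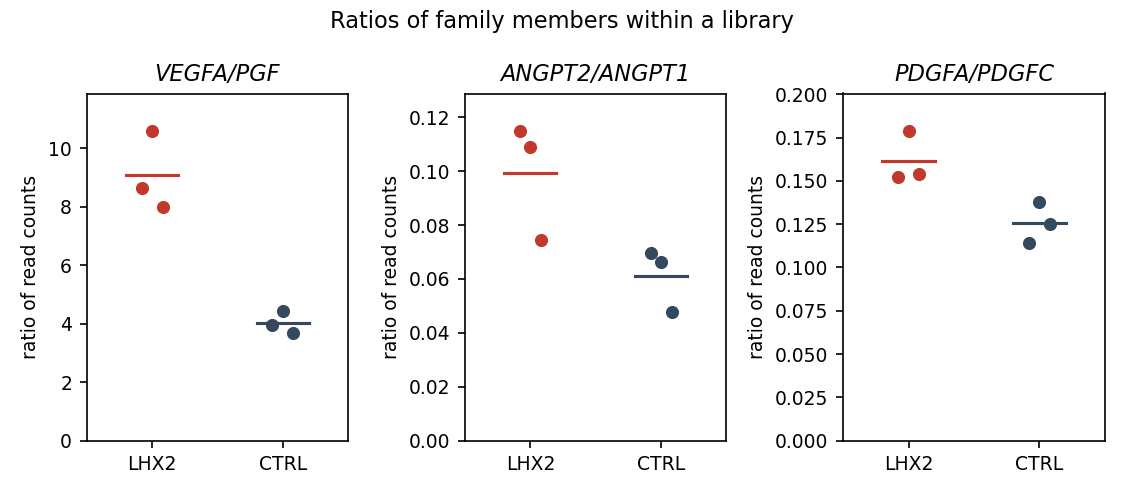
Ratios of read counts between members of a family within each library (red, LHX2; dark, CTRL; lines, means of the ratios; axes start at 0). VEGFA over PGF lies between 7.99 and 10.6 in LHX2 libraries and between 3.67 and 4.45 in CTRL libraries, and the ratios of ANGPT2 to ANGPT1 and of PDGFA to PDGFC are also higher in each LHX2 library than in any CTRL library.

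In the PDGF family the least and the most abundant genes did not pass the test, and PDGFA, which signals mainly through PDGFRA, rose. PDGFA had 6.26, 6.73 and 5.71 CPM in LHX2 replicates 1 to 3, against 4.09, 5.00 and 5.05 CPM in CTRL replicates 1 to 3, from 188, 205 and 206 counts against 133, 196 and 164. The groups did not overlap, and the rise was 1.32-fold (log2 fold change 0.40 ± 0.117 SE, edgeR adjusted p = 0.0173; chromosome 7, 497258 to 520700). It was lost without LHX2 replicate 2 (0.34, adjusted p = 0.0658) or CTRL replicate 1 (0.31, adjusted p = 0.0859), and adjusted p ran from 0.00731 to 0.0859 over the alternatives.

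PDGFC, a ligand that is secreted latent and needs proteolytic activation, had 41.2, 37.7 and 37.0 CPM in LHX2 libraries, against 35.8, 36.3 and 40.3 CPM in CTRL libraries. The groups overlapped and the log2 fold change was 0.04 ± 0.061 (SE, edgeR adjusted p = 0.63; chromosome 4, 156760454 to 156971799). PDGFC supplied 85.2% ± 0.947 of the reads of the 3 PDGF genes in LHX2 libraries and 88.1% ± 0.845 in CTRL libraries. PDGFB, the ligand that recruits pericytes through PDGFRB, was near the filter, with 15, 12 and 20 counts in LHX2 libraries and 11, 11 and 12 in CTRL libraries. Its libraries did not overlap in CPM, but the log2 fold change of 0.57 ± 0.331 (SE) did not pass (edgeR adjusted p = 0.214). Reads of PDGFA per read of PDGFC were 0.152, 0.179 and 0.154 in LHX2 libraries, against 0.114, 0.138 and 0.125 in CTRL libraries, a log2 difference of 0.36. The two-sided exact permutation p of 0.1 (adjusted p = 0.1) was the smallest possible, for a ratio chosen after the values were seen.

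The angiopoietins differed in their outcome. ANGPT1, which stabilises vessels, had 19.6, 19.2 and 20.5 CPM in LHX2 libraries, against 19.4, 21.9 and 21.3 CPM in CTRL libraries, with overlapping groups and a log2 fold change of -0.08 ± 0.07 (SE, edgeR adjusted p = 0.433; chromosome 8, 107249482 to 107497918). ANGPT2, typically a product of activated endothelium, was low, with 68, 64 and 55 counts in LHX2 replicates 1 to 3, against 44, 57 and 33 in CTRL replicates 1 to 3. That is 2.26, 2.1 and 1.53 CPM against 1.35, 1.45 and 1.02 CPM, so the groups did not overlap, but LHX2 replicate 3 lay just above CTRL replicate 2.

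ANGPT2 rose 1.52-fold (log2 fold change 0.60 ± 0.21 SE, edgeR adjusted p = 0.0396; chromosome 8, 6499632 to 6563245). The call was lost with DESeq2 (adjusted p = 0.0929) and limma-voom (0.0560), and without LHX2 replicate 1 (0.143), LHX2 replicate 2 (0.107), CTRL replicate 1 (0.0785), CTRL replicate 2 (0.0514) or CTRL replicate 3 (0.139). Adjusted p ran from 0.0113 to 0.143 over the alternatives. Exons of MCPH1, on the opposite strand, overlap ANGPT2. MCPH1 had 28.2 ± 1.37 CPM in LHX2 and 28.8 ± 1.28 CPM in CTRL libraries (log2 fold change -0.03, edgeR adjusted p = 0.761). Reads in the overlap were not measured and the strand setting of the counting is not given, so the ANGPT2 level is uncertain. There were 0.115, 0.109 and 0.0744 ANGPT2 reads per ANGPT1 read in LHX2 libraries, against 0.0696, 0.0664 and 0.0478 in CTRL libraries, a log2 difference of 0.70. This ratio too was chosen after the values were seen, and its two-sided exact permutation p of 0.1 (adjusted p = 0.1) was the smallest possible.

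Levels of different genes were compared as CPM per kb of transcript. With the longest GENCODE transcript of any type, PDGFC was highest in both groups, at 9.27 ± 0.536 CPM per kb in LHX2 and 8.99 ± 0.601 CPM per kb in CTRL libraries. In LHX2 libraries VEGFA (6.30 ± 0.432) came next, then VEGFB (4.58 ± 0.763) and ANGPT1 (4.54 ± 0.154), then EDN1 (2.79 ± 0.236), PDGFA (2.70 ± 0.22) and PGF (2.42 ± 0.394), all in CPM per kb. Neither VEGFB and ANGPT1 nor EDN1, PDGFA and PGF differed from their neighbours beyond the SD. In CTRL libraries ANGPT1 (4.79 ± 0.296 CPM per kb) came second, then VEGFB (3.89 ± 0.24) and VEGFA (3.54 ± 0.154), with VEGFB higher than VEGFA in each CTRL library, then PGF (3.03 ± 0.193), PDGFA (2.04 ± 0.235) and EDN1 (1.15 ± 0.191). ANGPT2, PDGFB and VEGFC were lowest in both groups, at 0.362, 0.138 and 0.0053 CPM per kb in LHX2 libraries and 0.235, 0.0942 and 0.00824 CPM per kb in CTRL libraries.

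This order depends on the transcript. The longest transcripts of VEGFA (12167 bases) and PGF (3549 bases) are annotated with a retained intron. With the longest protein-coding transcript instead, 3535 bases for VEGFA and 1927 for PGF, an alternative chosen after the data were seen, VEGFA was highest, at 21.7 ± 1.49 CPM per kb in LHX2 and 12.2 ± 0.529 CPM per kb in CTRL libraries. PGF then stood at 4.45 ± 0.725 CPM per kb in LHX2 and 5.57 ± 0.355 CPM per kb in CTRL libraries, and the other 8 levels were the same.

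Transcripts of the kinase receptors for VEGF and angiopoietins were at or near 0, while the neuropilins were abundant and rose. KDR, the main signalling receptor of VEGFA, and TEK had 0 counts in all 6 libraries, and TIE1 had 0 in the LHX2 libraries together and 1 in the CTRL libraries together. FLT1, the receptor of VEGFA, VEGFB and PGF, had 23 counts in the LHX2 libraries together and 18 in the CTRL libraries together, and FLT4, the VEGFC receptor, 10 and 6. NRP1, the co-receptor of VEGFA, had 286, 280 and 263 CPM in LHX2 libraries, against 178, 182 and 192 CPM in CTRL libraries, and rose 1.503-fold (edgeR adjusted p = 1.15e-07). NRP2, a co-receptor for VEGFC and semaphorins, had 16.7, 16.9 and 17.4 CPM in LHX2 libraries, against 7.22, 8.93 and 8.53 CPM in CTRL libraries, and rose 2.06-fold (edgeR adjusted p = 4.53e-07). In both neuropilin genes the groups did not overlap.

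Among receptors for PDGF and endothelin, PDGFRA rose 1.19-fold, with 20.8, 20.3 and 21.4 CPM in LHX2 libraries, against 18.6, 17.7 and 16.4 CPM in CTRL libraries (edgeR adjusted p = 0.0148, and 0.0581 without CTRL replicate 3). PDGFRB was left out by the filter, with 1, 1 and 2 counts in LHX2 libraries and 6, 10 and 6 in CTRL libraries. In the fit without a filter on low counts its log2 fold change was -2.25 ± 0.828 (SE, edgeR adjusted p = 0.0375). PDGFRL, a secreted receptor-like protein, had a log2 fold change of 0.35 ± 0.137 (SE) and did not pass (edgeR adjusted p = 0.0665), though it passed without a filter on low counts (0.0402), after removal of the length and GC trend (0.0366), without LHX2 replicate 2 (0.0289) and without CTRL replicate 3 (0.0324). EDNRB, the endothelin receptor found here, had 5.49, 5.45 and 4.30 CPM in LHX2 libraries, against 5.31, 4.80 and 4.40 CPM in CTRL libraries, and a log2 fold change of 0.06 ± 0.127 (SE, edgeR adjusted p = 0.741). EDNRA had 0 counts in all 6 libraries. In all, 3 of 5 tested receptors rose, 0 fell and 2 did not pass, beside 16.6% higher and 15.8% lower among all tested genes. The other 7 of 12 were not tested.

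**Figure D4:**
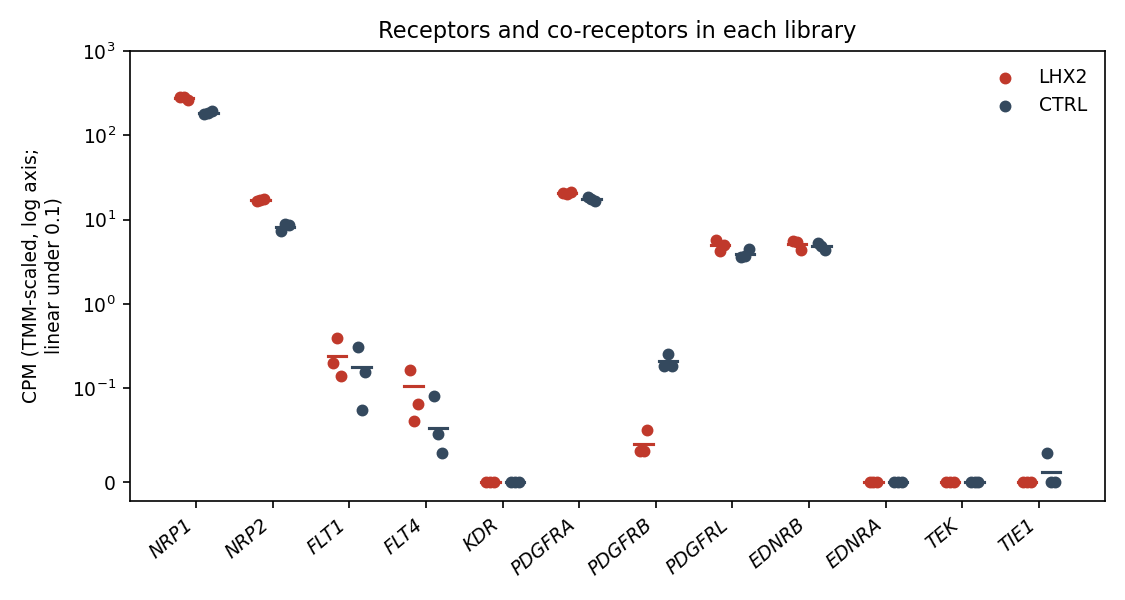
CPM of 12 receptors and co-receptors in each library, on a log axis that is linear under 0.1 CPM (red, LHX2; dark, CTRL; lines, means). NRP1 and NRP2 lie higher in the LHX2 libraries, and KDR, EDNRA and TEK are at 0 in all 6 libraries.

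Genes listed for the processing of these or related ligands went both ways, with 2 of 8 tested genes higher, 2 lower and 4 not passing. Their median log2 fold change was -0.002, and among all tested genes 16.6% were higher and 15.8% lower. ECE1, which cuts the endothelin precursor to its active peptide, rose 1.18-fold, to 101.1 ± 5.33 CPM in LHX2 libraries, against 85.9 ± 0.75 CPM in CTRL libraries (edgeR adjusted p = 0.000807). After removal of the length and GC trend its log2 fold change was 0.14, against 0.24 as fitted, and still passed (adjusted p = 0.0135). FURIN, a convertase of PDGF and VEGFC precursors, rose 1.14-fold (edgeR adjusted p = 0.00912), a call that was lost after removal of the length and GC trend (log2 fold change 0.08, adjusted p = 0.0977). PCSK6, a related convertase, fell by 0.19 on the log2 scale (edgeR adjusted p = 0.00608). PLAU, the urokinase protease that can activate PDGFD, had 1.63, 1.84 and 2.50 CPM in LHX2 libraries, against 8.66, 8.70 and 7.73 CPM in CTRL libraries, which was 4.16-fold lower with LHX2 (edgeR adjusted p = 4.84e-08). PDGFD is outside the member set and was left out by the filter, with 2 to 14 counts per library.

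Of 21 other listed ligands and related factors in the table, not all of them secreted, 10 were tested, of which 3 rose, 2 fell and 5 did not pass. Their median log2 fold change was 0.07, and among all tested genes 16.6% were higher and 15.8% lower. EFNA1, the ligand ephrin-A1, fell by 0.70 on the log2 scale (edgeR adjusted p = 1.2e-05). CXCL8, the chemokine interleukin-8, rose 1.61-fold, with 17.4 ± 2.54 CPM in LHX2 libraries and 10.8 ± 1.86 CPM in CTRL libraries (edgeR adjusted p = 0.000514). ANG, the ribonuclease angiogenin, rose 1.31-fold (edgeR adjusted p = 0.0099).

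Genes listed as inhibitors of vessel growth also moved both ways: 6 of 21 tested rose, 2 fell and 13 did not pass. The median log2 fold change of the 21 was 0.19, and among all tested genes 16.6% were higher and 15.8% lower. Not all of the 21 act only as inhibitors, VASH2, AGT and KNG1 among them, so these counts do not describe inhibitors alone. COL18A1, the collagen chain from which endostatin is cut, rose 1.48-fold, with 65.3, 65.7 and 84.1 CPM in LHX2 libraries, against 49.5, 52.8 and 42.7 CPM in CTRL libraries (edgeR adjusted p = 0.000212). Its log2 fold change was 0.36 after removal of the length and GC trend, against 0.57 as fitted, and passed in both. TIMP3, a protease inhibitor that also blocks binding of VEGFA to KDR, had 9.61 ± 0.729 CPM in LHX2 and 17.5 ± 0.412 CPM in CTRL libraries, which was 1.82-fold lower with LHX2 (edgeR adjusted p = 1.27e-06). TIMP2 (log2 fold change 0.52, edgeR adjusted p = 0.0412) and PLG, the precursor of angiostatin (-0.68, edgeR adjusted p = 0.0321), passed less firmly. TIMP2 was lost with DESeq2 (0.0781), limma-voom (0.0540) and without LHX2 replicate 1 or 3 or CTRL replicate 2 or 3 (0.0836 to 0.178). PLG was lost with the replicate block (0.0650), with DESeq2 (0.108) and without LHX2 replicate 1 or 2 or CTRL replicate 2 or 3 (0.0614 to 0.161).

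VEGFA is a known hypoxia-induced gene, so other genes of that response were set beside it. Of 23 tested hypoxia-induced genes 7 rose, 4 fell and 12 did not pass, and the median log2 fold change was -0.02. Among all tested genes 16.6% were higher and 15.8% lower. The collagen hydroxylase gene P4HA2 rose 1.41-fold (edgeR adjusted p = 2.11e-05), PFKFB4, a regulator of glycolysis, 1.32-fold (0.00491), the mTORC1 inhibitor gene DDIT4 1.30-fold (0.000356) and BNIP3L, a mitophagy receptor, 1.30-fold (1.13e-05). SLC2A1, the glucose transporter GLUT1, had 53.8, 49.0 and 58.3 CPM in LHX2 libraries, against 59.0, 61.0 and 60.3 CPM in CTRL libraries, and fell by 0.16 on the log2 scale (edgeR adjusted p = 0.0406). That call was lost with library totals alone (0.112), with the replicate block (0.0650) and without any 1 library except LHX2 replicate 3 (0.0733 to 0.162), with the log2 fold change at -0.099 without LHX2 replicate 2. The other genes of this list that fell, named after their values were seen, were INSIG2, ERO1A and ALDOA. INSIG2, which acts in sterol sensing, had a log2 fold change of -0.34 (edgeR adjusted p = 9.64e-05), and ERO1A, an oxidase of the endoplasmic reticulum, -0.27 (0.000182). The glycolytic gene ALDOA (-0.30, edgeR adjusted p = 0.0367) had overlapping groups, at 16.2 ± 2.54 CPM in LHX2 and 19.8 ± 1.73 CPM in CTRL libraries. That was far below the 1409 and 1442 CPM of LDHA, another glycolytic gene of the list. Values of ALDOA under the alternatives are not given.

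Genes listed as known regulators of VEGFA counted 5 higher, 1 lower and 13 not passing among 19 tested. Their median log2 fold change was 0.03, and among all tested genes 16.6% were higher and 15.8% lower. The list mixes positive and negative regulators, so these counts and the median have no single direction for VEGFA. The lower gene was ZFP36L2 (log2 fold change -0.13, edgeR adjusted p = 0.0445). EPAS1, the hypoxia-inducible factor HIF-2alpha, rose 1.57-fold, with 213.5, 204.6 and 205.7 CPM in LHX2 libraries, against 134.8, 132.7 and 129.9 CPM in CTRL libraries (edgeR adjusted p = 7.49e-09). ARNT, the partner of the hypoxia-inducible factors, rose 1.22-fold (edgeR adjusted p = 0.000176), and HIF1A differed by 0.09 ± 0.036 on the log2 scale (SE, edgeR adjusted p = 0.0662), passing with library totals alone (0.0166), with the filter of 1 CPM in 3 libraries (0.0488) and after removal of the length and GC trend (0.0244). JUN, a subunit of AP-1, rose 1.58-fold (edgeR adjusted p = 5.49e-06), and SMAD3, an effector of TGF-beta, 1.17-fold (edgeR adjusted p = 0.0013). The part of these factors in the levels of VEGFA and EDN1 was not tested.

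Likeness of pattern was measured over the 6 libraries as the root mean square difference in log2 CPM, centred on the CTRL mean, among genes with at least 5 CPM. Of 10383 genes, those nearest to EDN1 included HPX (0.118 on the log2 scale) and A2M (0.122), which encode hemopexin and alpha-2-macroglobulin. Of 10382 genes, the nearest to VEGFA were TMOD1 (0.0434), FAM227B (0.0642) and DUSP6 (0.0653), of which TMOD1 encodes the actin-capping protein tropomodulin and DUSP6 an ERK phosphatase. DUSP6 had 239 CPM in LHX2 and 132 CPM in CTRL libraries, and TMOD1 7.78 and 4.44 CPM. These genes were chosen for their values, so no test is given.

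The labelled cell type was checked against markers. All 11 hepatocyte markers were tested, with summed levels of 46090 to 50540 CPM in LHX2 and 49590 to 50990 CPM in CTRL libraries, a sum carried mostly by AFP and ALB. Of these markers 1 rose, 4 fell and 6 did not pass. For this and the other marker lists, the shares among all tested genes were 16.6% higher and 15.8% lower. The transferrin gene TF rose (log2 fold change 0.22), and APOA2 (-0.36), SERPINA1 (-0.30), HNF4A, a hepatocyte transcription factor (-0.26), and TTR (-0.17) fell. Of 12 endothelial markers, 10 had a mean under 1 CPM and CDH5, ERG, CLDN5, TEK and KDR had 0 counts in every library. The sum of the endothelial list was 18.4 to 21.6 CPM in LHX2 and 13.7 to 16.4 CPM in CTRL libraries, carried by EGFL7 (16.4 ± 1.903 CPM in LHX2 and 10.9 ± 1.49 CPM in CTRL libraries) and PECAM1 (3.03 ± 0.249 and 4.02 ± 0.265 CPM), of which EGFL7 rose and PECAM1 fell. Fibroblast and mural markers summed to 52.4 to 59.3 CPM in LHX2 and 24.6 to 26.5 CPM in CTRL libraries, and of 4 tested, COL1A2, LUM and TAGLN rose and RGS5 did not pass. COL1A2, a collagen chain, held 36.8 ± 1.21 CPM of this in LHX2 and 9.26 ± 0.752 CPM in CTRL libraries, while 5 of 8 had a mean under 1 CPM, among them ACTA2 and DCN. Of 6 leukocyte markers 3 had a mean under 1 CPM, CD3E with 0 counts, and the list summed to 611.5 to 677.9 CPM in LHX2 and 470.6 to 499.9 CPM in CTRL libraries, most of it from lysozyme (LYZ). Of 3 leukocyte markers tested, LYZ rose 1.35-fold and CD68 1.98-fold, and CD14 did not pass. In bulk RNA a change in the number of cells of a type and a change of RNA per cell cannot be told apart, and the part of other cells in the growth factor levels was not tested.

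**Figure D5:**
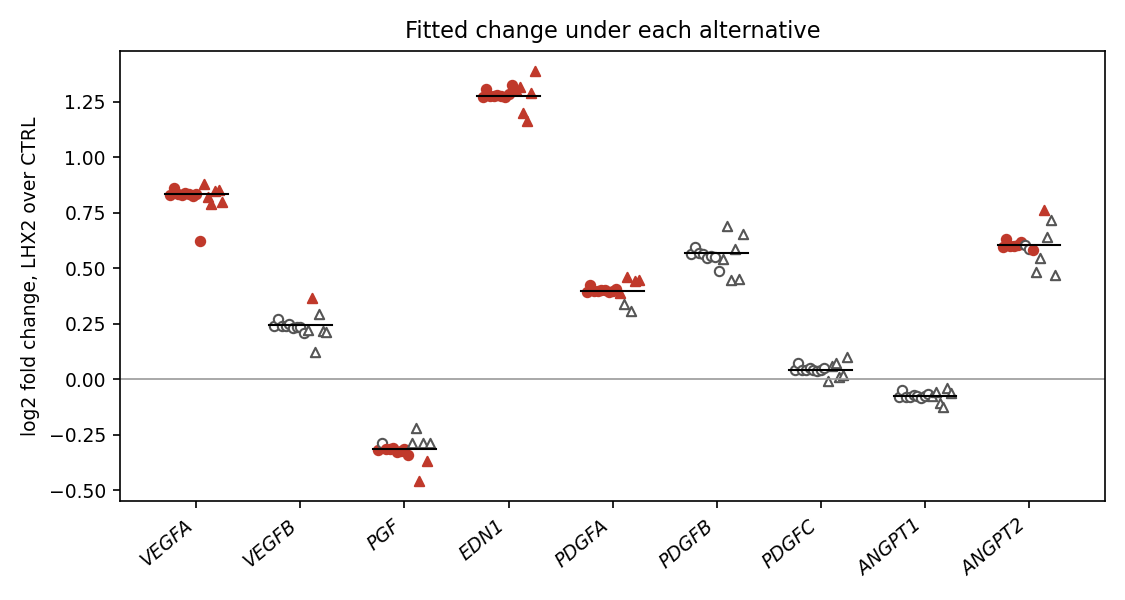
Fitted log2 fold change of LHX2 over CTRL for 9 growth factors under each alternative (triangles, 1 library left out; circles, other settings; filled, adjusted p under 0.05; open, not passing; black line, value as reported). All points of EDN1 and VEGFA are filled, whereas PGF, PDGFA and ANGPT2 have open points, and VEGFB has 1 filled point.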

How the data were processed

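RNA from 3 LHX2 and 3 CTRL libraries of Huh7 cells was measured after preparation with a stranded mRNA kit, per the labels' protocols. The authors deposited raw counts of reads per gene, whole numbers without normalization. Per the submitters' processing notes, reads were handled with featureCounts 2.0.0, TopHat2 2.1.1, SAMtools 1.9, Bowtie2 2.3.5.1, bcl2fastq 2.20 and FastQC on GRCh38/hg38; the annotation, and whether counting used strand, is not given in the sources used here. One CTRL column is spelled unlike the others and was taken as CTRL replicate 1 from the number that ends it.

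From these counts, genes were filtered with edgeR's filterByExpr at its defaults (a minimum count of 10, a minimum total of 15, a proportion of 0.7), scaled with TMM, and compared with the quasi-likelihood F-test on group alone, with p-values adjusted over all 14533 tested genes (Benjamini-Hochberg, 0.05). SEs were derived from the F statistic. Positions came from RefSeq (GRCh38.p14) and transcript lengths from GENCODE release 29. The fit was first tested on simulated counts. Versions were edgeR 4.0.16, DESeq2 1.42.0 and limma 3.58.1 in R 4.3.3, and scipy 1.17.1 in Python 3.11.15.

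The members and gene lists were chosen with earlier results of these data known, so their counts beside the shares of all genes are no test of a list. Named genes were the members, LHX2, receptors with at least 10 counts, up to 4 changed genes per list with the largest log2 fold change and a mean of at least 1 CPM, ECE1, FURIN, HIF1A, EPAS1, SLC2A1, and the 3 genes nearest in pattern to EDN1 and VEGFA. Marker genes, receptors under 10 counts and MCPH1, which overlaps ANGPT2, are named beside that rule. So are INSIG2, ERO1A and ALDOA, and some genes that describe a list or a level. All 4 hypoxia-induced genes that fell are therefore named, but only 4 of the 7 that rose. Of the genes this rule selects, 2 are not reported here. The alternatives tried were DESeq2, limma-voom, a replicate block, upper-quartile or RLE factors, scaling by library totals alone, no filter on counts, 1 CPM in 3 libraries as the filter, removal of a loess trend (span 0.3) with transcript length and GC content, and each library left out. Counts limit precision: a count of 0 allows up to 3, which covers counting error only.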

Additional observations from a re-analysis of the deposited data

How the results depend on the processing

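EDN1 (log2 fold change 1.16 to 1.39) and VEGFA (0.62 to 0.88) passed under all 15 alternatives, VEGFA lowest after removal of the length and GC trend. That trend took the 12167-base transcript with a retained intron as the length of VEGFA, and the protein-coding length was not tried there. The number of members changed ran from 2 (without CTRL replicate 1) to 5 when 1 library was left out, while all genes changed ran from 3549 (without CTRL replicate 2) to 4567, with 3780 without CTRL replicate 1, against 4716 with all libraries. Of all genes changed, 2798 were higher and 1888 lower with library totals alone, and 2207 higher and 2895 lower after removal of the length and GC trend, against 2415 and 2301 as reported. With 1 library left out, log2 fold changes ran from -0.459 to -0.221 for PGF, from 0.468 to 0.764 for ANGPT2, from 0.307 to 0.459 for PDGFA, from 0.123 to 0.364 for VEGFB, from -0.127 to -0.042 for ANGPT1 and from -0.010 to 0.098 for PDGFC, which was below 0 without LHX2 replicate 1, as was EDNRB (-0.002 to 0.177). PGF was -0.286 with library totals alone, and ANGPT2 0.606 with DESeq2 and 0.585 with limma-voom, none of which passed; the cause was not tested. With protein-coding transcript lengths, VEGFA was 21.7 and 12.2 CPM per kb in LHX2 and CTRL libraries and PGF 4.45 and 5.57. PDGFB could not be tested with the filter of 1 CPM in 3 libraries.

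Deviations of same-numbered LHX2 and CTRL libraries from their group means correlated at -0.172, -0.162 and -0.383 over 11699 genes, so the numbers were not taken as pairs, and no library correlated best with its own number. With the replicate block 3768 genes changed, against 4716 without it, and 5 members changed in both. Depth limits PDGFB and VEGFC, whose libraries held at most 20 and 2 counts.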
